A study of Rattus norvegicus with 20 samples.

Results

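The 36 genes described here encode the cyclins, cyclin-dependent kinases, replication factors and mitotic proteins that carry a cell through DNA replication and division. They were chosen by name from 30508 genes measured on rat arrays, with earlier results of these data known. The list runs from Ccnd1 at the start of the cycle to Cdc20 at its end. All 36 genes had at least 1 probe, 56 probes in all, and all 36 passed the filter on dim probes. Of them, 25 matched the gene name in the array files, where Cdk1 stood under its older name Cdc2a. A further 10 matched that name with a suffix (predicted or mapped), and Aurka was found under its older name Stk6 through its accession. RNA came from primary cultures of neonatal rat heart, labelled as cardiomyocytes, and each of 20 arrays carried the RNA of 1 sample labelled with the dye Cy3. Untreated cultures had 2 arrays, where the series text states 3. Each of 6 diclofenac groups had 3 arrays: a reference concentration (called 1), 1/5 of it or 1/25 of it, each for 6 h and for 24 h. Diclofenac is a pain-relieving and anti-inflammatory drug that blocks the cyclooxygenase enzymes. The series set treated beside untreated cultures to follow the response over concentration and time. The reference is not given in molar units. Untreated cultures carry no time in the labels and no culture was labelled as kept for 24 h without the drug, so the effect of the drug and that of hours in culture cannot be told apart. Nothing in the labels says whether the arrays of a group stand for separate cultures or animals, and the p-values cover only the spread between them, which may be technical.

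In a dividing cell, the D-type cyclins with Cdk4 release the E2F transcription factors from the retinoblastoma protein. E2F factors then switch on the genes for replication, among them the MCM proteins, which form the ring-shaped helicase that opens DNA at origins, and the clamp Pcna that holds the polymerase on its template. Later, Cdk1 with its B-type cyclins drives entry into mitosis, and spindle motors, Aurora and Polo kinases and the spindle checkpoint separate the chromosomes. Heart muscle cells of the rat leave the cell cycle soon after birth, whereas fibroblasts of a heart culture go on dividing. In RNA from a whole culture, fewer cycling cells and less RNA per cycling cell cannot be told apart.

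Because E2F factors are known to act on many of these genes, their promoters were searched for the letters of its motif. RefSeq promoters of build GRCr8 matched 29 of the 36 genes, and the 250 bases before the start were searched on both strands. An E2F motif (TTTCCCGC, TTTCGCGC, TTTGCCGC or TTTGGCGC) stood in 6 of the 29, which were Mcm2, Mcm5, Mcm6, Mcm7, Tyms and Cdk1, or 20.7%, against 1.73% of 33469 promoters. The CCAAT box (CCAAT) stood in 20 of 29, or 69%, against 34% of all promoters, and the cell cycle homology region (TTTGAA) in 7, or 24.1%, against 16.2%. These 30-base windows, with the match in capitals, are shown for the helicase genes because 4 of the 6 helicase genes fell between 6 h and 24 h.
Mcm2, 14 bases before the start, chr4:122918095-122918124, minus strand: ggtcacgtgacccggtTTTCGCGCgaaaac
Mcm5, 8 bases before the start, chr19:13488783-13488812, plus strand: cggacgaactcccaggttggttTTTCCCGC
Mcm6, 139 bases before the start, chr13:42404473-42404502, minus strand: tggcgtctgctTTTGGCGCgaaattagcgt
Mcm7, 52 bases before the start, chr12:22163212-22163241, minus strand: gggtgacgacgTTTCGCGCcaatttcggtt
A match describes the letters and not binding, which was not measured here. Among the helicase genes, a match stood in the windows of Mcm5 and Mcm6, which fell, and of Mcm2 and Mcm7, which did not pass the test, and none was found for Mcm3, which fell. Mcm4 was not among the 29 genes matched to a promoter.

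The share of spots well above background was 82.5% and 84.7% on the untreated arrays, 75.1% to 88.2% on the 9 arrays of 6 h, and 64.1% to 85.9% on the 9 arrays of 24 h. The third array of 1/5 for 24 h had the lowest share, 64.1%, and its 75th percentile was 3165 intensity units against 9623 or more on the other arrays. The other 3 arrays under 80% were the first of 1/25 for 24 h (72.4%), the second of 1/25 for 6 h (75.1%) and the first of 1/5 for 24 h (76.5%). No slide held both 6 h and 24 h arrays of 1 concentration. By the scan dates in the file headers, the untreated arrays and the 6 h arrays of 1 and 1/5 were scanned on day 1, the 6 h arrays of 1/25 on day 2, and the 24 h arrays on day 2 except for the second and the third of 1/25, on day 3. At concentrations 1 and 1/5, and for 24 h against untreated, time and scan day therefore cannot be told apart. Nor can concentration and scan day be told apart where 1/25 for 6 h is set against untreated or against the other 6 h groups. All 10 cardiomyocyte markers were kept, 8 of them well above background on all 20 arrays, Actc1, Tnnt2 and Myh6 included. Fibroblast markers were present as well, with 10 of 11 kept and 6 well above background on all 20 arrays, Col1a1, Col1a2 and Fn1 included.

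No gene of the set passed the test after 6 h of diclofenac. Levels throughout are log2 intensities relative to the 75th percentile of the array, so they compare arrays for 1 probe and not genes with each other. Groups were tested with limma, and the threshold was an adjusted p of 0.05 over all genes tested. At 6 h, 0 of 36 genes were called at concentration 1, at 1/5 or at 1/25, where 0.00656%, 0% and 0% of all genes were called. None of the 36 reached an unadjusted p of 0.05 in these 3 comparisons either, against 1.48%, 1.09% and 1.16% of all genes. Their median change was 0.12, 0.09 and 0.00 (log2) in that order, against 0.01, 0.02 and -0.07 for all genes. Single genes ran from -0.33 to 0.75 at concentration 1, with a median SE of 0.53. Changes of that size were not detectable with 2 untreated arrays. The range was -0.71 to 0.55 at 1/5 and -1.66 to 0.73 at 1/25, where the lowest was Mcm5, with its second array at -7.77.

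The 3 genes with the smallest p at concentration 1 for 6 h were Mki67, Mcm4 and Mcm2. Mki67 encodes Ki-67, a protein of dividing cells that coats mitotic chromosomes. Mki67 read -4.11 and -4.12 on the untreated arrays and, after 6 h, -3.44, -3.04 and -3.61 at concentration 1, -4.12, -3.63 and -3.73 at 1/5, and -3.26, -4.50 and -4.05 at 1/25. Mki67 after 24 h read -3.74, -3.95 and -3.80 at concentration 1, -4.0, -4.70 and -5.15 at 1/5, and -3.60, -4.42 and -3.26 at 1/25. All 3 arrays of concentration 1 at 6 h lay above both untreated arrays, by 0.75 on average (SE 0.43, unadjusted p 0.096). At 24 h the same concentration returned to between -3.95 and -3.74, still above both untreated arrays, and the lowest reading came from the third array of 1/5. Mcm4 was 0.54 above untreated (SE 0.66) and Mcm2 0.38 above (SE 0.53), and their arrays are given with the helicase below.

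After 24 h, too, no gene of the set passed the test against untreated cultures: 0 of 36 were called at concentration 1, 1/5 or 1/25, against 0.00328%, 0.184% and 0.00328% of all genes. At concentration 1 only Nusap1 and Plk1 of the 36 reached an unadjusted p of 0.05, against 4.56% of all genes. At 1/5, 17 of 36 (47.2%) did so, 13 lower and 4 higher, against 30.4% of all genes. At 1/25, 9 of 36 (25%) did so, all 9 lower, against 13.4% of all genes. The median change of the 36 genes was -0.15 at concentration 1, -0.61 at 1/5 and -0.23 at 1/25, against -0.10, -0.12 and -0.13 for all genes. Without the third array of 1/5, 10 of 36 genes reached an unadjusted p of 0.05 at 1/5 against 17.1% of all genes, and the median was -0.22. The lowest adjusted p among the 36 was 0.129 at 1/5 and 0.324 at 1/25.

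**Figure D1:**
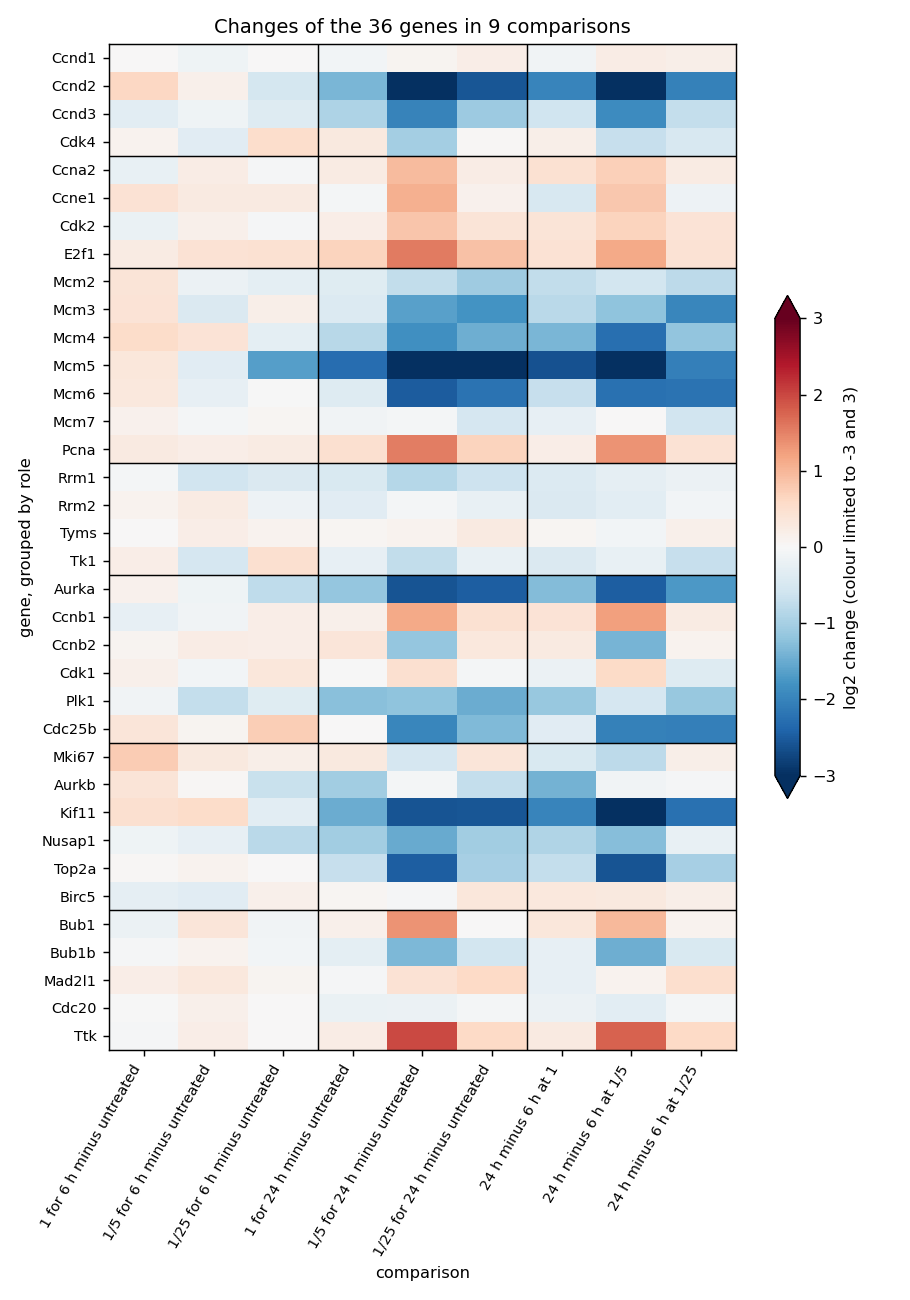
Change (log2) of each of the 36 genes, in rows grouped by role, in 9 comparisons, in columns, with blue for lower and red for higher and the colour limited to -3 and 3. The 3 columns of 6 h against untreated are mostly pale, with member medians of 0.12, 0.09 and 0.00. Their lowest cell is Mcm5 at 1/25 (-1.66). The darkest blue cells are Ccnd2, Mcm5 and Kif11 at 24 h.

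Between 6 h and 24 h in diclofenac, averaged over the 3 concentrations, 11 of the 36 genes passed the test. Of these, 10 fell: the spindle motor Kif11, the cyclin Ccnd2, the helicase genes Mcm3, Mcm4, Mcm5 and Mcm6, the mitotic kinases Aurka and Plk1, the phosphatase Cdc25b and the spindle protein Nusap1. Ccnb1, the cyclin that partners Cdk1 at mitotic entry, rose. The 11 called genes are 30.6% of the set, against 21.1% of 30505 genes tested, and whether these shares differ was not tested. By direction, 10 of 36 fell against 13.4% of all genes, and 1 of 36 rose against 7.7%. An unadjusted p of 0.05 was reached by 17 of 36 (47.2%) against 41.1% of all genes. The median change was -0.33 for the 36 genes and -0.09 for all genes.

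**Figure D2:**
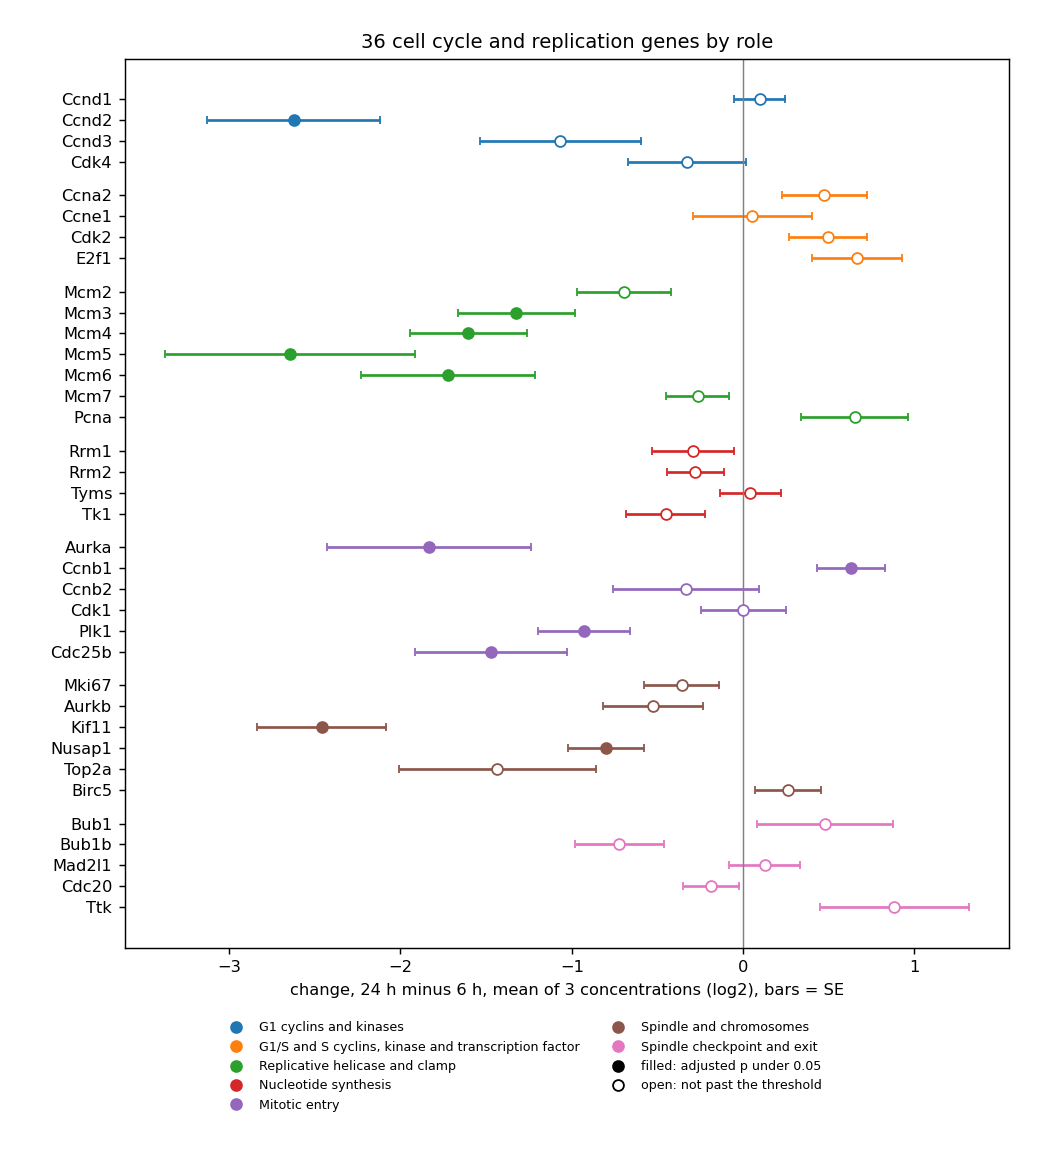
Change between 6 h and 24 h (log2, mean of 3 concentrations) of the 36 genes by role, with bars for the SE and filled points for an adjusted p under 0.05. Filled points to the left of 0 include Kif11 (-2.46) and Ccnd2 (-2.62), and Ccnb1 (0.63) is the only filled point to the right.

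The direction split depended on how arrays were scaled. With each array scaled to its median instead of its 75th percentile, the median of all genes moved from -0.09 to 0.30, and 14 of 36 genes (38.9%) were called against 36.1% of all genes, 8 lower and 6 higher (Birc5, Ccna2, Ccnb1, Cdk2, E2f1 and Pcna). Nusap1 and Plk1 were not called there. The number called also depended on single arrays. Left out one at a time, the second array of 1 for 24 h or the first of 1/25 for 24 h gave 4 genes (with 7.62% and 9.01% of all genes called), the third of 1/25 for 24 h or the first of 1/25 for 6 h gave 5 (10.3% and 8.43%), the third of 1/5 for 6 h gave 6 (10.7%), and the second or the third of 1 for 6 h gave 7 (12.3% and 11.3%). Leaving out the second of 1/5 for 24 h gave 18 (50%), against 44.2% of all genes. In each of these fits the share of all genes called moved the same way as the count of the set. Kif11, Ccnd2 and Mcm4 passed in all 20 of these fits and under every other setting that tested them, and Mcm3 passed in all 20. The other calls were lost in some of the 20 fits: Aurka in 15 (adjusted p up to 0.0939), Ccnb1 in 13 (up to 0.0848), Plk1 and Cdc25b in 8 each, Mcm6 in 7, Mcm5 in 4 and Nusap1 in 2. Nusap1 and Ccnb1 were also lost under 6 other settings, Aurka and Plk1 under 5, Cdc25b and Mcm6 under 4, Mcm3 under 2 and Mcm5 under 1, and the share of spots above background as a covariate was among them for each of these 8 genes.

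**Figure D3:**
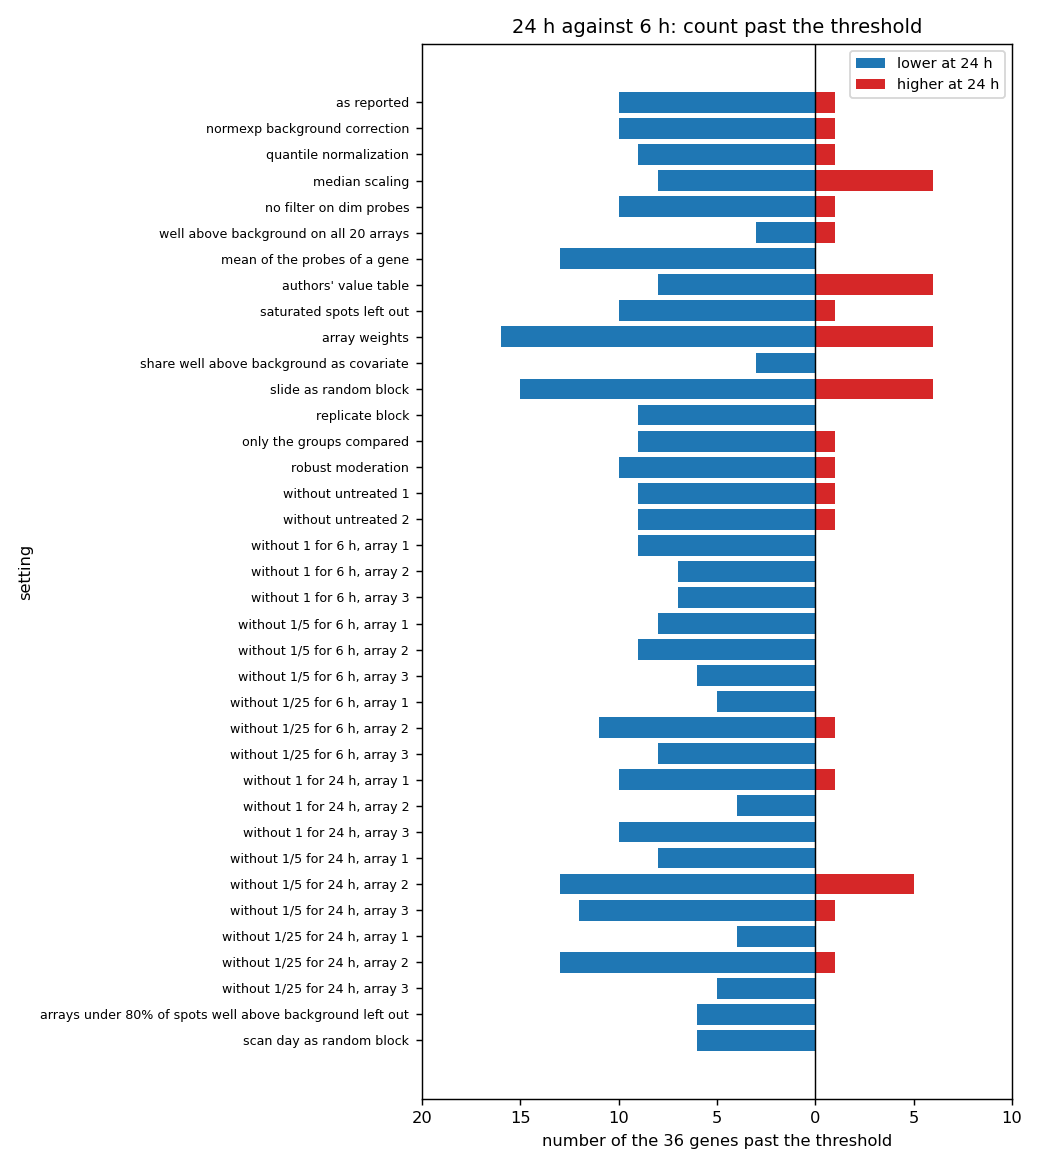
Number of the 36 genes past the threshold between 6 h and 24 h under each setting and with each array left out, drawn to the left for lower and to the right for higher at 24 h. The count as reported is 11, and it runs from 3 with the share of spots above background in the fit to 22 with array weights.

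Among the D-type cyclins and their kinase, Ccnd2 fell and the other 3 genes did not pass. D-type cyclins bind Cdk4 and begin the passage out of G1. Ccnd2 read -0.05 and 0.47 on the untreated arrays and, after 6 h, 0.69, 1.09 and 0.71 at concentration 1, 0.52, -0.19 and 0.78 at 1/5, and 0.76, -2.19 and 0.50 at 1/25. Ccnd2 after 24 h read -0.23, -2.11 and -1.13 at concentration 1, -3.35, -1.80 and -5.29 at 1/5, and -3.59, -0.75 and -2.71 at 1/25. Its change between the times was -2.62 (SE 0.51, adjusted p 0.00561). The third array of 1/5 for 24 h, at -5.29, was not well above background for Ccnd2, and with the share of spots well above background as a covariate the change was -1.65. All 24 h arrays of concentration 1 and of 1/5 lay below all 6 h arrays of the same concentration, and at 1/25 the second 6 h array overlapped them. The other genes of the group differed in size: Ccnd3 was 1.07 lower at 24 h (SE 0.47, adjusted p 0.103) and Cdk4, on 1 array fewer because an outlier spot was left out, 0.33 lower (SE 0.34). Without the third array of 1/5 for 24 h, the change was -0.64 (SE 0.32) for Ccnd3 and -0.02 (SE 0.20) for Cdk4. The array annotation places the only Ccnd3 probe on another chromosome than RefSeq gives, so its reading is uncertain. Ccnd1 had the smallest spread of the group. Ccnd1 read 1.81 and 2.05 on the untreated arrays and, after 6 h, 1.97, 1.99 and 1.87 at concentration 1, 1.78, 1.69 and 1.89 at 1/5, and 1.72, 2.02 and 2.05 at 1/25. Ccnd1 after 24 h read 1.62, 2.09 and 1.80 at concentration 1, 1.73, 1.90 and 2.37 at 1/5, and 2.01, 2.10 and 2.23 at 1/25. These values all lay between 1.62 and 2.37, and the change was 0.10 (SE 0.15). Its spot was saturated on 8 of 20 arrays, so the highest levels are compressed.

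No gene of the G1 to S step passed on the probe that stood for it. Ccne1 and Ccna2, the cyclins of S phase entry and S phase, their kinase Cdk2, and E2f1 had changes from 0.05 to 0.66, and 0 of 4 passed the test. Without the third array of 1/5 for 24 h, Ccne1 turned to -0.28 (SE 0.20), Ccna2 was 0.25, Cdk2 0.31 and E2f1 0.44. E2f1 had the largest, 0.66 (SE 0.26, adjusted p 0.075), and all 3 of its 24 h arrays lay above all 3 of its 6 h arrays at concentration 1 and at 1/25. Cdk2 had the smallest spread of the group. Cdk2 read -0.95 and -0.76 on the untreated arrays and, after 6 h, -1.02, -1.07 and -1.10 at concentration 1, -0.71, -0.48 and -0.89 at 1/5, and -1.10, -0.79 and -0.77 at 1/25. Cdk2 after 24 h read -0.82, -0.53 and -0.65 at concentration 1, -0.18, -0.99 and 1.11 at 1/5, and 0.00, -0.71 and -0.69 at 1/25. Its 24 h arrays lay above its 6 h arrays at concentration 1 and at 1/25, and the change was 0.50 (SE 0.23, adjusted p 0.115). The third array of 1/5 for 24 h was the highest array for each of the 4 genes, and the upstream probes of all 4 read below 0, as given with the probes.

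In the replicative helicase, 4 of 6 subunit genes fell and the clamp gene did not. The 6 MCM proteins assemble as 1 ring, so their genes are given together. Mcm4 had the smallest adjusted p of the 6. Mcm4 read 0.28 and 0.40 on the untreated arrays and, after 6 h, 0.83, 1.02 and 0.80 at concentration 1, 0.75, 0.73 and 0.80 at 1/5, and 0.61, -0.84 and 0.40 at 1/25. Mcm4 after 24 h read 0.34, -1.33 and -0.50 at concentration 1, -1.73, -0.21 and -2.54 at 1/5, and -1.88, 0.08 and -1.56 at 1/25. Its change was -1.60 (SE 0.34, adjusted p 0.00915), a 3.04-fold decrease. At concentration 1 and 1/5 all 24 h arrays lay below all 6 h arrays, and the 6 h arrays of both lay above the untreated ones. The other Mcm4 probe changed by 0.07 (SE 0.22, adjusted p 0.824), and the mean of its probes by -0.77 (SE 0.25, adjusted p 0.0368). Mcm3 read -0.85 and -1.19 on the untreated arrays and, after 6 h, -0.68, -0.82 and -0.36 at concentration 1, -1.65, -1.99 and -0.69 at 1/5, and -0.15, -1.15 and -1.23 at 1/25. Mcm3 after 24 h read -1.35, -1.52 and -1.40 at concentration 1, -3.33, -1.61 and -3.02 at 1/5, and -4.05, -1.21 and -3.16 at 1/25. The change of Mcm3 was -1.32 (SE 0.34, adjusted p 0.0191), and the second arrays of 1/5 and of 1/25 for 24 h stayed within the 6 h range of their concentration.

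Mcm5 read -4.50 and -1.62 on the untreated arrays and, after 6 h, -2.30, -2.91 and -2.94 at concentration 1, -3.84, -2.74 and -3.58 at 1/5, and -2.64, -7.77 and -3.76 at 1/25. Mcm5 after 24 h read -3.88, -6.04 and -6.10 at concentration 1, -7.92, -5.16 and -6.86 at 1/5, and -7.91, -3.94 and -8.49 at 1/25. The fitted change of Mcm5 was -2.65 (SE 0.73, adjusted p 0.0232). It was well above background on 1 of 3 arrays at 1/5 and at 1/25 for 24 h, so the size of that change rests in part on spots near background. Mcm6 read -3.89 and -3.95 on the untreated arrays and, after 6 h, -3.57, -3.75 and -3.50 at concentration 1, -4.41, -5.26 and -2.83 at 1/5, and -3.13, -4.54 and -4.10 at 1/25. Mcm6 after 24 h read -4.35, -4.84 and -3.72 at concentration 1, -7.74, -4.86 and -6.64 at 1/5, and -7.97, -3.77 and -6.68 at 1/25. The change of Mcm6 was -1.72 (SE 0.51, adjusted p 0.029), and it too was well above background on 1 of 3 arrays at both of these groups. Its 24 h arrays at concentration 1 overlapped its 6 h arrays, and at 1/5 the first and the third array of 24 h lay below all 6 h arrays.

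The remaining subunit genes had smaller changes. Mcm2 read -2.11 and -1.90 on the untreated arrays and, after 6 h, -1.83, -1.54 and -1.51 at concentration 1, -2.19, -2.31 and -2.02 at 1/5, and -2.08, -3.08 and -1.70 at 1/25. Mcm2 after 24 h read -1.83, -2.84 and -2.43 at concentration 1, -3.47, -2.97 and -1.76 at 1/5, and -3.65, -2.17 and -3.40 at 1/25. Mcm2 was 0.69 lower (SE 0.27, adjusted p 0.0744), and it passed without the third array of 1/5 for 24 h (-0.86, SE 0.24, adjusted p 0.0225). Mcm7 read -2.24 and -2.87 on the untreated arrays and, after 6 h, -2.90, -2.33 and -2.03 at concentration 1, -3.01, -2.66 and -2.17 at 1/5, and -2.46, -2.77 and -2.25 at 1/25. Mcm7 after 24 h read -2.62, -2.93 and -2.44 at concentration 1, -2.36, -2.67 and -2.78 at 1/5, and -3.28, -2.79 and -3.11 at 1/25. Mcm7 had the smallest spread of the helicase and clamp genes and was 0.27 lower (SE 0.19, adjusted p 0.273). Pcna was 0.65 higher (SE 0.31, adjusted p 0.126), with 4.0 on the third array of 1/5 for 24 h and 0.70 to 1.58 on the other 24 h arrays, so 1 array carried much of that value. Without that array its change was 0.33 (SE 0.14). The other Pcna probe read -0.50 (SE 0.45, adjusted p 0.394), and the mean of its probes 0.07 (SE 0.18).

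The 4 nucleotide synthesis genes gave no call on the probes that stood for them. They supply deoxynucleotides: Rrm1 and Rrm2 are the subunits of ribonucleotide reductase, Tyms makes thymidylate and Tk1 salvages thymidine. Their changes ran from -0.45 for Tk1 to 0.04 for Tyms, with 3 of 4 below 0. The array annotation places the probes of Tk1 and Rrm2 on another chromosome than RefSeq gives, so their readings are uncertain. Rrm1 was -0.29 on its brightest probe, -1.55 (SE 0.64, adjusted p 0.0804) and -1.58 (SE 0.39, adjusted p 0.0153) on its other probes, and it was called with the mean of its probes (-1.14, SE 0.39, adjusted p 0.0456). Rrm2 had the smallest spread. Rrm2 read 0.21 and 0.31 on the untreated arrays and, after 6 h, 0.49, 0.47 and 0.13 at concentration 1, 0.82, 0.47 and 0.22 at 1/5, and 0.33, 0.18 and -0.15 at 1/25. Rrm2 after 24 h read 0.32, -0.18 and -0.38 at concentration 1, 0.21, -0.09 and 0.46 at 1/5, and 0.31, -0.18 and -0.04 at 1/25. All 20 readings lay between -0.38 and 0.82 and the times overlapped, with a change of -0.28 (SE 0.17, adjusted p 0.204).

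Of the 6 genes of mitotic entry, 3 fell and 1 rose. Aurka is the kinase of the spindle poles, Plk1 a kinase acting from mitotic entry to exit, and Cdc25b a phosphatase that activates Cdk1. Plk1 read 0.18 and 0.10 on the untreated arrays and, after 6 h, 0.07, 0.15 and -0.15 at concentration 1, -0.22, -1.52 and 0.05 at 1/5, and 0.50, -0.32 and -0.85 at 1/25. Plk1 after 24 h read -0.87, -1.78 and -0.70 at concentration 1, -1.66, -0.97 and -0.60 at 1/5, and -1.69, -0.66 and -1.71 at 1/25. The change of Plk1 was -0.93 (SE 0.27, adjusted p 0.028), with all 3 arrays of concentration 1 at 24 h below all of its 6 h arrays. Cdc25b read -2.83 and -3.35 on the untreated arrays and, after 6 h, -2.93, -2.70 and -2.57 at concentration 1, -3.26, -3.70 and -2.09 at 1/5, and -1.85, -2.71 and -2.52 at 1/25. Cdc25b after 24 h read -2.56, -3.80 and -2.85 at concentration 1, -4.89, -3.49 and -6.77 at 1/5, and -6.06, -2.74 and -4.42 at 1/25. Cdc25b fell by 1.47 (SE 0.44, adjusted p 0.0317), and its 24 h arrays lay below its 6 h arrays at 1/25. Aurka read -0.53 and -1.05 on the untreated arrays and, after 6 h, -0.61, -0.45 and -0.90 at concentration 1, -1.35, -1.17 and -0.22 at 1/5, and -0.70, -2.68 and -1.25 at 1/25. Aurka after 24 h read -1.25, -3.50 and -1.13 at concentration 1, -4.03, -0.55 and -5.55 at 1/5, and -4.54, -1.33 and -3.94 at 1/25. The change of Aurka was -1.83 (SE 0.60, adjusted p 0.0402), the highest adjusted p of the called genes, and the second array of 1/5 at 24 h was as high as most 6 h arrays.

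Ccnb1 went the other way on its brightest probe. Ccnb1 read -0.50 and -0.45 on the untreated arrays and, after 6 h, -0.59, -1.03 and -0.56 at concentration 1, -0.51, -0.48 and -0.71 at 1/5, and -0.20, -0.03 and -0.59 at 1/25. Ccnb1 after 24 h read -0.70, 0.03 and -0.29 at concentration 1, 0.67, 0.00 and 1.31 at 1/5, and 0.30, -0.48 and 0.12 at 1/25. The change was 0.63 (SE 0.20, adjusted p 0.0365), and the 24 h arrays lay above the 6 h arrays at 1/5. The other Ccnb1 probe read -0.14 (SE 0.14), and with the mean of its probes Ccnb1 was not called (0.24, SE 0.16, adjusted p 0.236). Its partner Cdk1 showed a change of 0.00 (SE 0.25). Ccnb2 was 0.33 lower (SE 0.42), with the third array of 1/5 for 24 h at -6.59 and all other 24 h arrays at -2.56 to -1.94. Without that array its change turned to 0.14 (SE 0.13).

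Of the 6 spindle and chromosome genes, 2 fell on the probes that stood for them. Kif11 is the motor that pushes the spindle poles apart. Kif11 read -4.76 and -4.32 on the untreated arrays and, after 6 h, -3.84, -3.61 and -4.70 at concentration 1, -3.51, -4.15 and -4.32 at 1/5, and -4.23, -6.19 and -4.14 at 1/25. Kif11 after 24 h read -5.35, -6.84 and -5.92 at concentration 1, -7.96, -6.67 and -6.79 at 1/5, and -7.83, -5.56 and -7.91 at 1/25. Its change was -2.46 (SE 0.38, adjusted p 0.00169). It passed the filter on dim probes through the untreated arrays and the 6 h arrays of 1 and 1/5, where it was high. At 24 h it was well above background on 2 of 3 arrays at concentration 1, on 0 of 3 at 1/5 and on 1 of 3 at 1/25, so the size of that change rests in part on spots near background and the level at 1/5 is a bound. At 1/5 it was at least 2.87-fold lower at 24 h than at 6 h and at least 1.96-fold lower than untreated. These bounds set the lowest signal above background on each array in place of the dim spot, and neither comparison passed alone (adjusted p 0.0594 and 0.129). Only the second array of 1/25 for 6 h reached down into the 24 h range.

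Nusap1 binds spindle microtubules around chromosomes. Nusap1 read -4.68 and -3.12 on the untreated arrays and, after 6 h, -3.61, -4.11 and -4.35 at concentration 1, -3.80, -4.36 and -4.24 at 1/5, and -4.83, -4.83 and -4.49 at 1/25. Nusap1 after 24 h read -4.92, -5.38 and -4.49 at concentration 1, -5.55, -5.46 and -5.21 at 1/5, and -5.34, -4.52 and -4.95 at 1/25. It fell by 0.80 (SE 0.22, adjusted p 0.0235). The 24 h arrays lay below the 6 h arrays at concentration 1 and at 1/5, and the first untreated array was as low as the 6 h arrays of 1/25. Top2a, the topoisomerase that untangles chromosomes, did not pass, with a change of -1.43 (SE 0.57, adjusted p 0.0775). On the brightest probe, the third array of 1/5 for 24 h read -4.14 for Top2a and the other 24 h arrays 0.01 to 2.28. Without that array its change was -0.86 (SE 0.31, adjusted p 0.0551). Birc5, the survivin subunit of the chromosomal passenger complex, had the smallest spread of the group. Birc5 read 1.43 and 0.97 on the untreated arrays and, after 6 h, 0.70, 0.74 and 1.38 at concentration 1, 0.62, 0.59 and 1.41 at 1/5, and 1.13, 1.76 and 1.19 at 1/25. Birc5 after 24 h read 0.95, 1.35 and 1.46 at concentration 1, 1.65, 0.83 and 1.00 at 1/5, and 1.65, 1.43 and 1.55 at 1/25. Its times overlapped (change 0.26, SE 0.19, adjusted p 0.298). Aurkb, the kinase of the same complex, was 0.53 lower (SE 0.29) and Mki67 0.36 lower (SE 0.22), and neither passed. Without the third array of 1/5 for 24 h, Aurkb was at -0.75 (SE 0.22) and passed (adjusted p 0.0245).

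The 5 checkpoint and exit genes gave no call on the probes that stood for them and pointed both ways. Bub1, Bub1b, Mad2l1 and Ttk hold the cell in mitosis until all chromosomes are attached, and Cdc20 then activates the ligase that ends it. Bub1b was 0.72 lower (SE 0.26, adjusted p 0.0569) and Ttk 0.88 higher (SE 0.43, adjusted p 0.134). The 3 probes of Bub1b read -1.07, -0.72 and -0.88, and Bub1b was called with their mean (-0.89, SE 0.24, adjusted p 0.0215). The other Ttk probe read -0.57 (SE 0.26, adjusted p 0.106). With quantile normalization, Bub1b (-0.65, adjusted p 0.0376) and Cdc20 (-0.46, adjusted p 0.0459) were called. Ttk rested on the third array of 1/5 for 24 h, and without it the change was 0.48 (SE 0.28), whereas Bub1b was then 0.47 lower (SE 0.13, adjusted p 0.0202). Cdc20 read 1.87 and 2.04 on the untreated arrays and, after 6 h, 2.01, 2.05 and 1.75 at concentration 1, 2.14, 2.15 and 2.04 at 1/5, and 1.81, 1.98 and 2.10 at 1/25. Cdc20 after 24 h read 1.51, 1.88 and 1.91 at concentration 1, 1.80, 2.27 and 1.29 at 1/5, and 1.78, 2.19 and 1.71 at 1/25. Cdc20 had the smallest spread of the group and a change of -0.19 (SE 0.16). It was saturated on 15 of 20 arrays, which limits what its high levels can show.

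**Figure D4:**
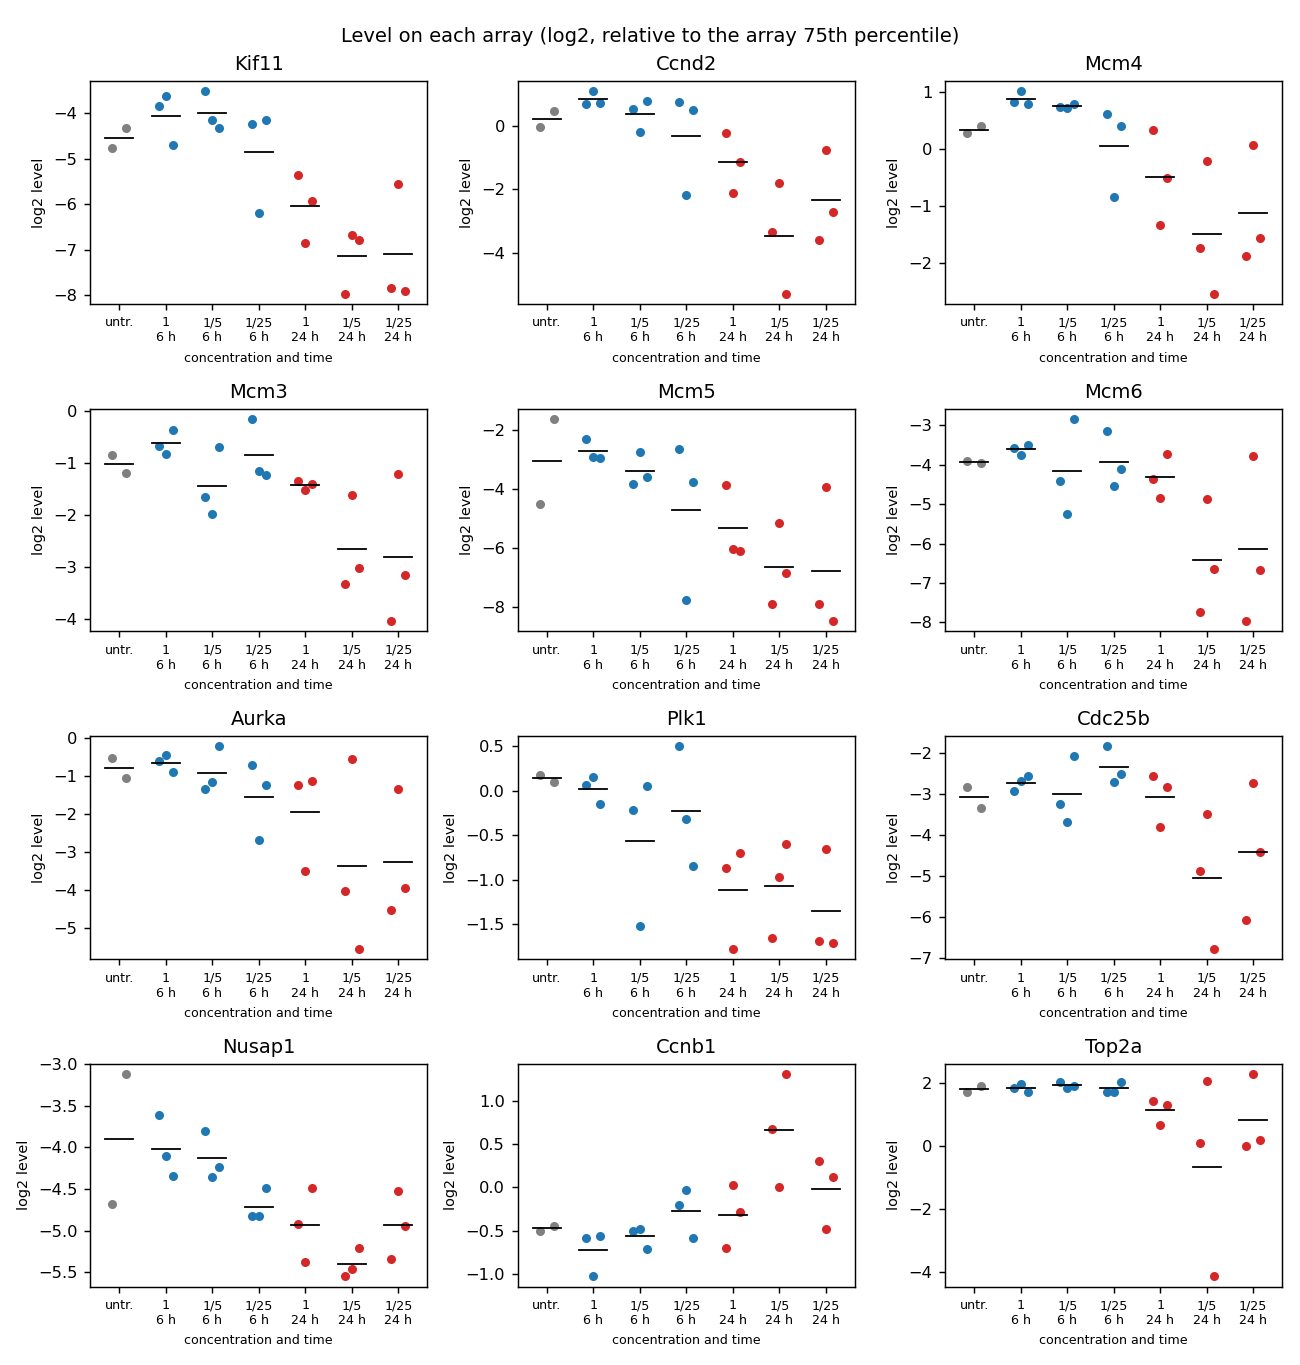
Level on each array (log2, relative to the array's 75th percentile) of the 11 genes that passed and of Top2a, by concentration and time, with points for arrays and lines for group means. Untreated arrays are grey, 6 h blue and 24 h red. In Kif11, Ccnd2 and Mcm4 most red points lie below the blue ones, and the spread of the red points is wide at 1/5 and 1/25.

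Tested at 1 concentration at a time, no gene of the set passed between 6 h and 24 h: 0 of 36 at concentration 1, 1/5 and 1/25, against 0.233%, 0.0983% and 0% of all genes. An unadjusted p of 0.05 was reached by 6, 15 and 6 of the 36, against 13.8%, 33% and 9.91% of all genes, and without the third array of 1/5 for 24 h by 7 at 1/5 against 15.6%. The median change was -0.38, -0.31 and -0.20. At concentration 1, all 24 h arrays lay below all 6 h arrays for 15 of 36 genes, against 22.4% of all genes, and above for 4 (Ccna2, Ccnb2, Cdk2 and E2f1) against 16.1%. At 1/5 they lay below for 6 genes against 12.8% and above for 2 (Ccnb1 and Pcna) against 15.5%, and at 1/25 below for 2 (Cdc25b and Mcm7) against 4.8% and above for 2 (Cdk2 and E2f1) against 10.7%. Kif11, Nusap1, Ccnd2, Bub1b, Mcm4 and Mcm5 lay below at 2 concentrations, against 8.35% of all genes at 2 or 3, and Cdk2 and E2f1 lay above at 2, against 10.6%. No gene of the set did so at all 3.

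No gene of the set passed the test between concentrations. At 6 h, 0 of 36 genes were called between 1 and 1/5, between 1/5 and 1/25 or between 1 and 1/25, against 0.00656%, 0% and 0.0197% of all genes. An unadjusted p of 0.05 was reached by 0, 1 (Tk1) and 0 of the 36, against 2.8%, 2.78% and 4.79%. The 6 h arrays of 1/25 were scanned on another day than those of 1 and 1/5, so scan day is part of those comparisons. At 24 h, 0 of 36 were called in the same 3 comparisons, against 0%, 0.00328% and 0.00328%. There 6, 1 (Mki67) and 1 (Mcm3) of the 36 reached an unadjusted p of 0.05, against 21.5%, 6.68% and 5.01%. The 6 between 1 and 1/5 were Ccnb1, Ccnd2, Bub1b, Cdc25b, Mcm6 and Ttk. The change between times was not shown to depend on concentration either: 0 of 36 genes were called for the difference between concentration 1 and 1/25, against 0% of all genes, and 0 reached an unadjusted p of 0.05, against 2.57%. With a median SE of 0.67 for that difference, a dependence of that size was not detectable.

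Other genes of the cycle changed in the same contrast. Of 90 further cell cycle genes, 77 were measured after the filter, and 17 fell and 2 rose, against 13.4% and 7.7% of all genes, with a median change of -0.29. Among those that fell were the spindle genes Prc1 (-3.94, SE 0.97), Knstrn (-2.77, SE 0.56) and Cdca8 (-2.12, SE 0.45), the licensing factor Cdc6 (-1.76, SE 0.46), Mcm10 (-1.38, SE 0.43) and the primase gene Prim1 (-0.91, SE 0.19). The 2 that rose were Stmn1 (1.08, SE 0.33), a microtubule-destabilising protein, and Wee1 (0.68, SE 0.17), the kinase that holds Cdk1 inactive. Of 13 measured inhibitors and arrest genes, 0 rose and 2 fell, Cdkn2a (-1.43, SE 0.45) and Cdkn2b (-1.44, SE 0.42). Cdkn1a, the p21 inhibitor that p53 induces, was 0.37 higher (SE 0.22, adjusted p 0.204). Against untreated cultures, 0 of the 77 genes and 0 of the 13 passed in any of the 6 groups, and 0 to 23 and 0 to 5 of them reached an unadjusted p of 0.05. The 23 of 77 and the 5 of 13 were at 1/5 for 24 h, where 30.4% of all genes did.

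Some markers of other cell types passed in the same contrast, where 13.4% of all genes were lower and 7.7% higher. Smooth muscle markers had 2 of 3 measured genes lower and a median of -1.21, and their mean level over genes ran from -0.76 to 0.09 on the 6 h arrays and from -3.43 to -0.39 on the 24 h arrays. Erythroid markers had 2 of 4 lower, Rhag and Slc4a1 (median -0.98, mean level -3.82 to -1.78 at 6 h and -4.60 to -3.31 at 24 h). Rhag was well above background on only 4 arrays, so the size of its fall rests on spots near background. Mesothelial and epithelial markers had 3 of 6 lower (median -0.34, -3.46 to -2.38 and -4.12 to -2.96). Fibroblast markers had 1 of 10 higher and 1 lower (median 0.05, -0.56 to -0.25 and -0.93 to -0.34). Cardiomyocyte markers had 3 of 10 lower (median 0.08, 0.31 to 0.73 and 0.05 to 0.72), endothelial markers 2 of 6 higher (median 0.21, -5.02 to -3.53 and -4.08 to -2.80), and leukocyte markers 2 of 5 higher (median -0.22, -2.56 to -1.81 and -2.93 to -1.73). Of the fibroblast and of the cardiomyocyte markers, 3 each were saturated on 10 or more arrays, so their changes are compressed. The part of the marker shifts in the changes of the 36 genes was not tested.

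Array quality moved with time as well, and the fit was repeated with it. With the share of spots well above background as a covariate, Kif11 (-2.15, SE 0.40, adjusted p 0.0108), Ccnd2 (-1.65, SE 0.30, adjusted p 0.00856) and Mcm4 (-1.04, SE 0.26, adjusted p 0.0411) were called, 3 of 36 genes, with 3.31% of all genes called. With the 4 arrays under 80% left out, 6 of 36 (16.7%) were called against 15% of all genes: Kif11, Ccnd2, Mcm4, Mcm5, Mcm2 and Aurkb. Kif11 was then -2.41 (SE 0.39), Ccnd2 -2.17 (SE 0.36) and Mcm4 -1.20 (SE 0.30). With scan day as a random block, Kif11, Ccnd2, Mcm3, Mcm4, Mcm5 and Nusap1 were called, 6 of 36 against 9.79% of all genes. Within 1 scan day the times could be compared only at 1/25, with 3 arrays of 6 h and 1 of 24 h, and 0 of 36 were called there, against 0% of all genes. An unadjusted p of 0.05 was reached by 6 of the 36 there, against 10.1% of all genes. The median change within that day was -0.62 for the 36 genes and -0.09 for all genes, and Kif11 read -2.98 (SE 0.95), Ccnd2 -3.28 (SE 1.42) and Mcm4 -1.94 (SE 0.99). The single 24 h array of that day was the one with 72.4% of spots well above background.

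Probes of the same gene could disagree. Of the 56 probes fitted singly, 17 passed between the times, 16 lower and 1 higher, against 22.7% of 35066 probes. Of the 18 genes with several probes, 0 had every probe called and 11 had some but not all. Positions in the files are on build rn3, and the strand was read from the order of the coordinates, which matched the RefSeq strand for 95.38% of 12478 genes. Whether a probe lies in a coding exon or a UTR was not determined here. The probe nearest the start of the gene was compared with the probe nearest its end. They differed for 7 of 18 genes, against 27.7% of 3575 genes with placed probes. The files place both probes of Rrm2, which is among the 18, on another chromosome than RefSeq gives, so their order is uncertain. Over those 3575 genes the median change was -0.48 on the upstream probe and 0.00 on the downstream one, and 42.6% had opposite signs, as did 9 of the 18. The first 30 bases of each 60-base probe are given for the 7 genes because which stretch was read decides the direction or the size of their change.
E2f1 upstream probe, chr3:144943138-144943197, minus strand: gggcagccgaggtgctgaaggtgcagaaac
E2f1 downstream probe, chr3:144938239-144938298, minus strand: gggggaatgttcattccctgtacctgactt
Ccna2 upstream probe, chr2:123010550-123010791, minus strand: attcacacgtaccttggggaaatggaggtt
Ccna2 downstream probe, chr2:123008021-123008080, minus strand: actaaatgtgtgagagtgaaagactgaaat
Cdk2 upstream probe, chr7:2001142-2001201, minus strand: gattaggtgaaaagggagaaagttttggca
Cdk2 downstream probe, chr7:2000436-2000495, minus strand: cgagaatgctgatactttttaaaggctggg
Ccnb1 upstream probe, chr2:31495178-31495417, minus strand: ctaagaacatagtcatggtgaaccgtggcc
Ccnb1 downstream probe, chr2:31494914-31494972, minus strand: ctcaactcatttgaatgtggttgcttctga
Mcm4 upstream probe, chr11:87215556-87215615, plus strand: atcagaacgtcacagctgaatcccgagatg
Mcm4 downstream probe, chr11:87218949-87219008, plus strand: gtggaacaaggaaggatttcagtcacactg
Kif11 upstream probe, chr1:241872479-241872779, plus strand: acgacaattgatggagaagagcttgttaaa
Kif11 downstream probe, chr1:241905396-241905455, plus strand: aaactggtttaacaaagcttaattgctttc
Rrm1 upstream probe, chr1:160014147-160015087, plus strand: aaacaaagaaagtgttcagtgacgtgatgg
Rrm1 downstream probe, chr1:160017921-160017980, plus strand: cattggaattggggtacaaggtctagcaga
In 4 of the 7 the downstream probe read the higher change. E2f1 was -0.65 on the upstream and 0.66 on the downstream probe, a difference of 1.31 (SE 0.36, adjusted p 0.0223). For Ccna2 the values were -1.13 and 0.47, a difference of 1.60 (SE 0.39, adjusted p 0.0144), and for Cdk2 -1.0 and 0.50, a difference of 1.50 (SE 0.33, adjusted p 0.0106). Ccnb1 read -0.14 and 0.63, a difference of 0.77 (SE 0.18, adjusted p 0.0127). Ccna2, Cdk2, E2f1 and Ccne1, the genes of the G1 to S step, thus had an upstream probe below 0, and each of these upstream probes fell in the fit of single probes.

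In the other 3 the downstream probe read the lower change. Mcm4 read 0.07 upstream and -1.60 downstream, a difference of -1.67 (SE 0.32, adjusted p 0.00801), so the fall of Mcm4 was seen on 1 of its 2 probes, well above background on all 20 arrays as both were. Kif11 read -0.99 (SE 0.43, adjusted p 0.0966) and -2.46, a difference of -1.47 (SE 0.48, adjusted p 0.0378). Both Kif11 probes were well above background on only 13 of 20 arrays, so the size of this difference is uncertain. Rrm1 read -0.29 upstream and -1.58 downstream, a difference of -1.29 (SE 0.33, adjusted p 0.0167), and the downstream probe was well above background on 17 of 20 arrays. Plk1 and Mcm3 read below 0 on both probes, with -0.89 and -0.93 for Plk1 and -1.02 and -1.32 for Mcm3, and differences of -0.03 (SE 0.33) and -0.30 (SE 0.35). Ccnd2, Mcm5, Mcm6, Aurka, Cdc25b and Nusap1 had a single probe each, so no second reading was at hand.

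**Figure D5:**
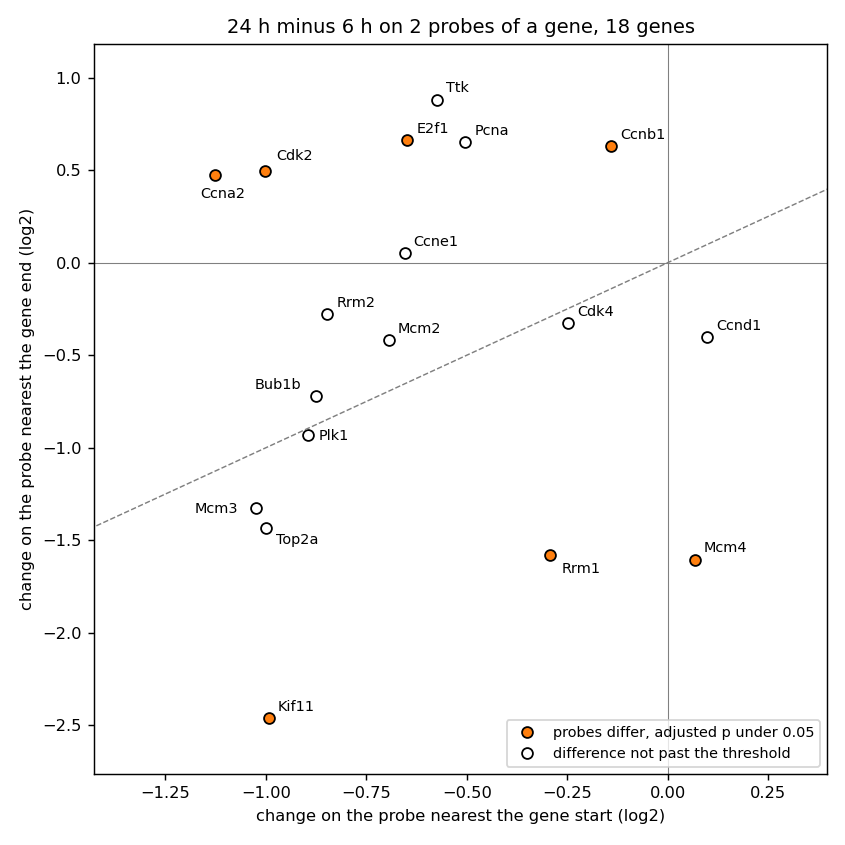
Change between 6 h and 24 h (log2) on the probe nearest the gene start, horizontal, and on the probe nearest the gene end, vertical, for the 18 genes with several probes, with a dashed line of equal change. Filled points mark the 7 genes whose probes differed. E2f1, Ccna2, Cdk2 and Ccnb1 lie above the line and Mcm4, Kif11 and Rrm1 below it.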

How the data were processed

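Total RNA of 20 samples was hybridised to 1-colour rat arrays, 43379 spots each. Per the file headers, images were read with Agilent Feature Extraction 9.5.3.1, whose processed intensity is background-subtracted and detrended within the array and not scaled between arrays. The table deposited by the authors holds a ratio. Set against the scanner values, this is the processed signal over the array's median and then over the mean of the 2 untreated arrays (99.81% of values within 0.05 log2). Processed intensities were put on the log2 scale minus each array's 75th percentile. Outlier spots were left out and saturated spots kept. A probe was kept if at least 1 group had it well above background on all of its arrays (35069 of 41012), and the brightest probe on average stood for its gene. Tests used limma 3.58.1 with R 4.3.3 (1 mean per group over all 20 arrays, empirical Bayes, two-sided, Benjamini-Hochberg over all genes of a comparison, threshold 0.05), in 17 comparisons. The fit was also run on simulated data, with independent noise of equal spread on every array. That run does not cover arrays of unequal quality, as in these data.

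The 36 genes, their 7 roles and the other lists were chosen with earlier results of these data known. Array values are given for genes past the threshold, for the gene of each role with the smallest residual SD, and for the 3 with the smallest p between times and for concentration 1 against untreated at 6 h and at 24 h. Other genes are named by change, range or counts, and the probes and the further cell cycle genes singled out were chosen after their values were seen. The comparison of probes, the fit without arrays under 80% and the fits by scan day were added after the data were seen. Depth on arrays is limited by their number. No 2 arrays held identical values. Alternatives covered background correction, scaling, filters, probe choice, saturation, weights, array quality, slide, scan day and replicate blocks, moderation, and each array left out.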

Additional observations from a re-analysis of the deposited data

Results flagged for a closer look

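For 5 readings, all arrays of 1 concentration lay above both untreated arrays at 6 h and below both at 24 h. The difference was not tested by this rule. At concentration 1 these were Aurkb (24 h minus 6 h -1.42, log2), Ccnd2 (-1.99) and Mcm3 (-0.80), against 3.08% of all genes. At 1/5 they were Kif11 (-3.15) and Mcm4 (-2.26), against 0.721% of all genes. The opposite order, below at 6 h and above at 24 h, was found for 0 of 36 genes at each concentration, against 2.21%, 0.656% and 0.19% of all genes.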

How the results depend on the processing

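Counts are of the 36 genes past the threshold. Between 6 h and 24 h averaged over concentrations, where 11 were called, the count was 22 with array weights (69.6% of all genes called), 21 with slide as a random block (48.7%), 6 without the 4 arrays under 80% of spots above background (15%), 6 with scan day as a random block (9.79%), 3 with the share above background as a covariate (3.31%), and 4 of 26 tested when a probe had to be above background on all 20 arrays (20%). It ran from 4 to 18 with 1 array left out (7.62% to 44.2%). Array weights ran from 0.0387 to 8.07, and the correlation estimated within slide was -0.17. For the comparisons that gave 0, percentages are again of all genes called. Array weights gave 3, 19 and 21 (14.2%, 38.2% and 48.9%) at 24 h against untreated, at 1, 1/5 and 1/25. Between times at 1, 1/5 and 1/25 they gave 15, 15 and 17 (44.7%, 34.9% and 56.9%). At 6 h they gave 4 between 1 and 1/5 (11.2%) and 2 between 1/5 and 1/25 (3.25%). At 24 h they gave 9 between 1 and 1/5 (23%) and 20 between 1 and 1/25 (51.9%). For the dependence of time on concentration they gave 8 (15.7%). Slide as a random block gave 17 at 1/5 for 24 h against untreated (34.3%), 20 between times at 1/5 (46%) and 13 between 1 and 1/5 at 24 h (31.8%). Between times at concentration 1, the groups compared alone gave 4 and the fit without arrays under 80% gave 3 (8.31% and 8.17%). Quantile normalization gave 1 between times at 1/5 (0.682%). With 1 array left out, counts varied too, and the percentages go with the upper end of each range. At 24 h against untreated they ran from 0 to 18 for 1/5 (35.3%) and 0 to 3 for 1/25 (2.07%). Between times they ran from 0 to 19 at 1/5 (38.4%) and 0 to 3 at 1/25 (1.71%). Between 1 and 1/5 at 24 h they ran from 0 to 19 (28.6%). The causes of these shifts were not tested. The highest counts came without the second array of 1/5 for 24 h (28.6% to 44.2% of all genes), which leaves the 2 arrays of lower signal in that group.

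Same-numbered arrays were not shown to be paired: 12 of 57 pairs correlated over 0.1. A replicate block gave 9 calls between times, without Aurka and Ccnb1, and 0 calls in the other comparisons. No called gene changed direction under these alternatives, although the upstream probes of Ccnb1 and Mcm4 read -0.14 and 0.07. Precision is limited by the 2 untreated arrays and by genes near background at 24 h, such as Kif11, Mcm5 and Mcm6.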
